A study of Mus musculus with 25 samples.

Results

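The myogenic regulatory factors are the transcription factors that commit cells to the muscle lineage and turn on muscle genes, and their transcripts were followed here over the week after muscle injury in 8 genes. They are the 4 basic helix-loop-helix factors Myod1, Myf5, Myf6 and Myog, the MADS-box partners Mef2a, Mef2c and Mef2d, and the homeobox gene Six4. The 8 genes were taken from the 8252 genes that the array measured, by probe sets that the platform annotation maps to that gene symbol alone. These were 14 probe sets, of which 13 passed the filter on low signals, at least 1 for each gene. A gene with several was represented by the one whose log2 value, averaged over the arrays, was highest. Mef2c had 4, Six4 3 and Mef2a 2, and each of the other 5 genes had 1.

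RNA was taken from the tibialis anterior, the fast muscle at the front of the shin, of C57BL/6J females aged 2 to 3 months. One injury was freezing with a steel probe 6 mm in diameter at dry ice temperature, held on the muscle for 10 s, and the other was 150 eccentric contractions in the living animal, in which an active muscle is lengthened. Muscles were collected at 6 h, 1 day, 3 days and 7 days after either injury. The freeze groups held 3, 3, 3 and 2 arrays at these times, the contraction groups 3, 2, 3 and 3, and there were 3 arrays of uninjured control muscle, in all 25 arrays in 9 groups. All animals shared the strain, the sex and the age range, and the controls had no treatment. Whether any arrays came from the same animal is not stated in the labels, so the p-values rest on the spread among these samples alone, and some of that spread may be technical.

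In skeletal muscle repair, satellite cells leave quiescence, divide as myoblasts, and then differentiate and fuse into new fibres. Myod1 and Myf5 are known for the commitment of cells to the lineage, Myog for the onset of differentiation, and Myf6, also called MRF4, for differentiated fibres. These 4 proteins bind the E-box, CANNTG, as dimers with ubiquitous E proteins, and MEF2 proteins act with them on many muscle promoters. Six4 and its relatives bind a motif called MEF3 and act upstream of and beside the basic helix-loop-helix factors in mouse embryos.

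The promoter of Myog is shown because it holds the binding motifs of all 3 families described here, and a window of Six4 because no other window of a member held a MEF3 match. Both windows cover the 250 bases before the gene start in RefSeq's annotation of GRCm38.p6 and are written 5′ to 3′ on the gene's strand. The Myog window is chr1:134289754-134290003 on the plus strand, and the Six4 window is chr12:73113246-73113495 on the minus strand. Motif matches stand in capitals.
Myog: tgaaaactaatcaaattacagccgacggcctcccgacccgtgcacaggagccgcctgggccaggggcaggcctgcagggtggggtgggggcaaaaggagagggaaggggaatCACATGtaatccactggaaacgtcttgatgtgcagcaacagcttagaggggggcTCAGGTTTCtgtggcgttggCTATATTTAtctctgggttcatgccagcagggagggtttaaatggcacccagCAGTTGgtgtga
Six4: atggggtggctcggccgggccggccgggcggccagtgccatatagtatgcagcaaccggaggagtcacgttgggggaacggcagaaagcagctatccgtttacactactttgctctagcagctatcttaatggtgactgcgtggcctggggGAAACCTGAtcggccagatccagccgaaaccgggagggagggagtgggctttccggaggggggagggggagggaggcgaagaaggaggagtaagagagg

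The motifs searched on both strands were the E-box, CANNTG, the MEF3 motif, TCAGGTTTC, and the MEF2 consensus with its last base left free, and no match overlapped another. In Myog the E-boxes CACATG and CAGTTG lay 138 to 133 and 12 to 7 bases before the start, the MEF3 match 84 to 76 and the MEF2 match, CTATATTTA, 64 to 56 bases before it. In Six4 the MEF3 motif matched on the opposite strand, 99 to 91 bases before the start. Among 32851 promoter windows of this length, 66.2% held an E-box, 7.07% the MEF2 consensus, 0.387% the MEF3 motif and 0.0213%, or 7 windows, all 3. RefSeq windows were matched to 6 of the 8 genes, namely Myog, Six4, Mef2c, Myf5, Mef2a and Mef2d. Six4 had a second start whose window held no match. Mef2c had 3 starts, with 2 E-boxes and 1 MEF2 match in the first window and 1 E-box in the third, and the windows of Myf5, Mef2a and Mef2d held none of the 3 motifs. A match is a run of letters and does not show that a factor binds there.

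Signals are arbitrary units on arrays scaled to a common level, and changes are log2 differences of signal plus 13 units ± SE, a scale that understates the changes of dim genes. A gene was called changed at a limma p under 0.05 after Benjamini-Hochberg adjustment over all 9506 probe sets tested. All 8 comparisons with uninjured muscle share the same 3 control arrays. In whole muscle, fewer cells of a type and less RNA per cell cannot be told apart. Signals of different genes come from different probes and are not compared here.

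Sample 436, labelled freeze at 3 days, stood apart from its group. Its log2 signals correlated at 0.803 to 0.804 with the other arrays of that group and at 0.947 to 0.952 with controls, against 0.939 to 0.976 for arrays of 1 group otherwise. The summed signal of 10 macrophage markers was 236 on this array, 21446 to 22466 on the others of its group and 294 to 440 on controls. It was kept in its labelled group, and results that rest on it are given with and without it. The 8 fibre markers, checked for the labelled tissue, were all on the array, with summed signals of 92557 to 151070 in controls.

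Injury was followed by an early rise of Myod1 and Myf6 and a later rise of Myog. Six4 was called lower on its representative probe set at 3 freeze and 2 contraction times. Among its other probe sets only 93001_at was called lower, after freeze at 1 day. At 6 h Myod1 stood 9.19-fold and Myf6 8.12-fold above control after freeze, and 7.13-fold and 7.29-fold after contraction. Myog reached its highest change at 3 days, 6.33-fold after freeze (13.9-fold without sample 436) and 7.38-fold after contraction. Of the 8 genes, 6 differed from control in at least 1 injured group by limma's moderated F test, where 26.2% of all probe sets tested did. The other 2 were Myf5 (adjusted p = 0.0684) and Mef2a (adjusted p = 0.0782). Without sample 436 all 8 were called, where 49.3% of probe sets were.

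Myod1, the factor best known for converting other cells to muscle, was called higher at 6 h, the first time measured, as was Myf6, and lay above control on every injured array. After freeze its signals were 2679, 2212 and 2922 at 6 h, 717, 602 and 695 at 1 day, 366 (sample 436), 1399.5 and 1572 at 3 days, and 671 and 662 at 7 days. After contraction they were 2224, 2197 and 1649 at 6 h, 1186 and 1993 at 1 day, 980.5, 558 and 1291 at 3 days, and 339, 738 and 441 at 7 days. Controls gave 334, 221 and 266. The 6 h arrays of either injury lay above those of every freeze group at later times, and the lowest injured array, 339 after contraction at 7 days, lay just above the highest control. Against control, Myod1 rose by 3.20 ± 0.40 (adjusted p = 1.29e-05) after freeze at 6 h, 1.27 ± 0.40 (adjusted p = 0.0385) at 1 day and 1.74 ± 0.40 (adjusted p = 0.0135) at 3 days. After contraction it rose by 2.83 ± 0.40 (adjusted p = 8.72e-05), 2.45 ± 0.45 (adjusted p = 0.00262) and 1.68 ± 0.40 (adjusted p = 0.0157) at these times. At 7 days the changes, 1.26 ± 0.45 after freeze and 0.80 ± 0.40 after contraction, were not called (adjusted p = 0.0945 and 0.555). Without sample 436 the freeze value at 3 days was 2.40 ± 0.30 (adjusted p = 8.16e-07), and that at 7 days was called (adjusted p = 0.00448).

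After freeze Myod1 fell by 1.93 ± 0.40 between 6 h and 1 day (adjusted p = 0.00963), and after contraction the same step was -0.38 ± 0.45 (adjusted p = 1.0). The test of the injury by time interaction, which compares the courses themselves, did not call Myod1 with all arrays (adjusted p = 0.615) and did without sample 436 (adjusted p = 0.024). Without sample 436 it then rose by 1.13 ± 0.30 between 1 and 3 days after freeze (adjusted p = 0.00978), against 0.47 ± 0.40 with it (adjusted p = 0.741). Both 6 h rises and the freeze step were called whichever array was left out. The other rises were each lost without some single arrays. That after contraction at 1 day was lost without sample 463 (adjusted p = 0.134), and that at 3 days without sample 435 or 467 or control 2 or 3 (adjusted p = 0.0504 to 0.0799). The freeze rise at 1 day was lost without any 1 of its 3 arrays or of the 3 controls (adjusted p = 0.0547 to 0.113), and that at 3 days without sample 450 or 468 (adjusted p = 0.124 and 0.120). With only the groups compared in the fit, none of the 4 freeze calls at 3 days was kept (adjusted p = 0.352 for each).

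**Figure D1:**
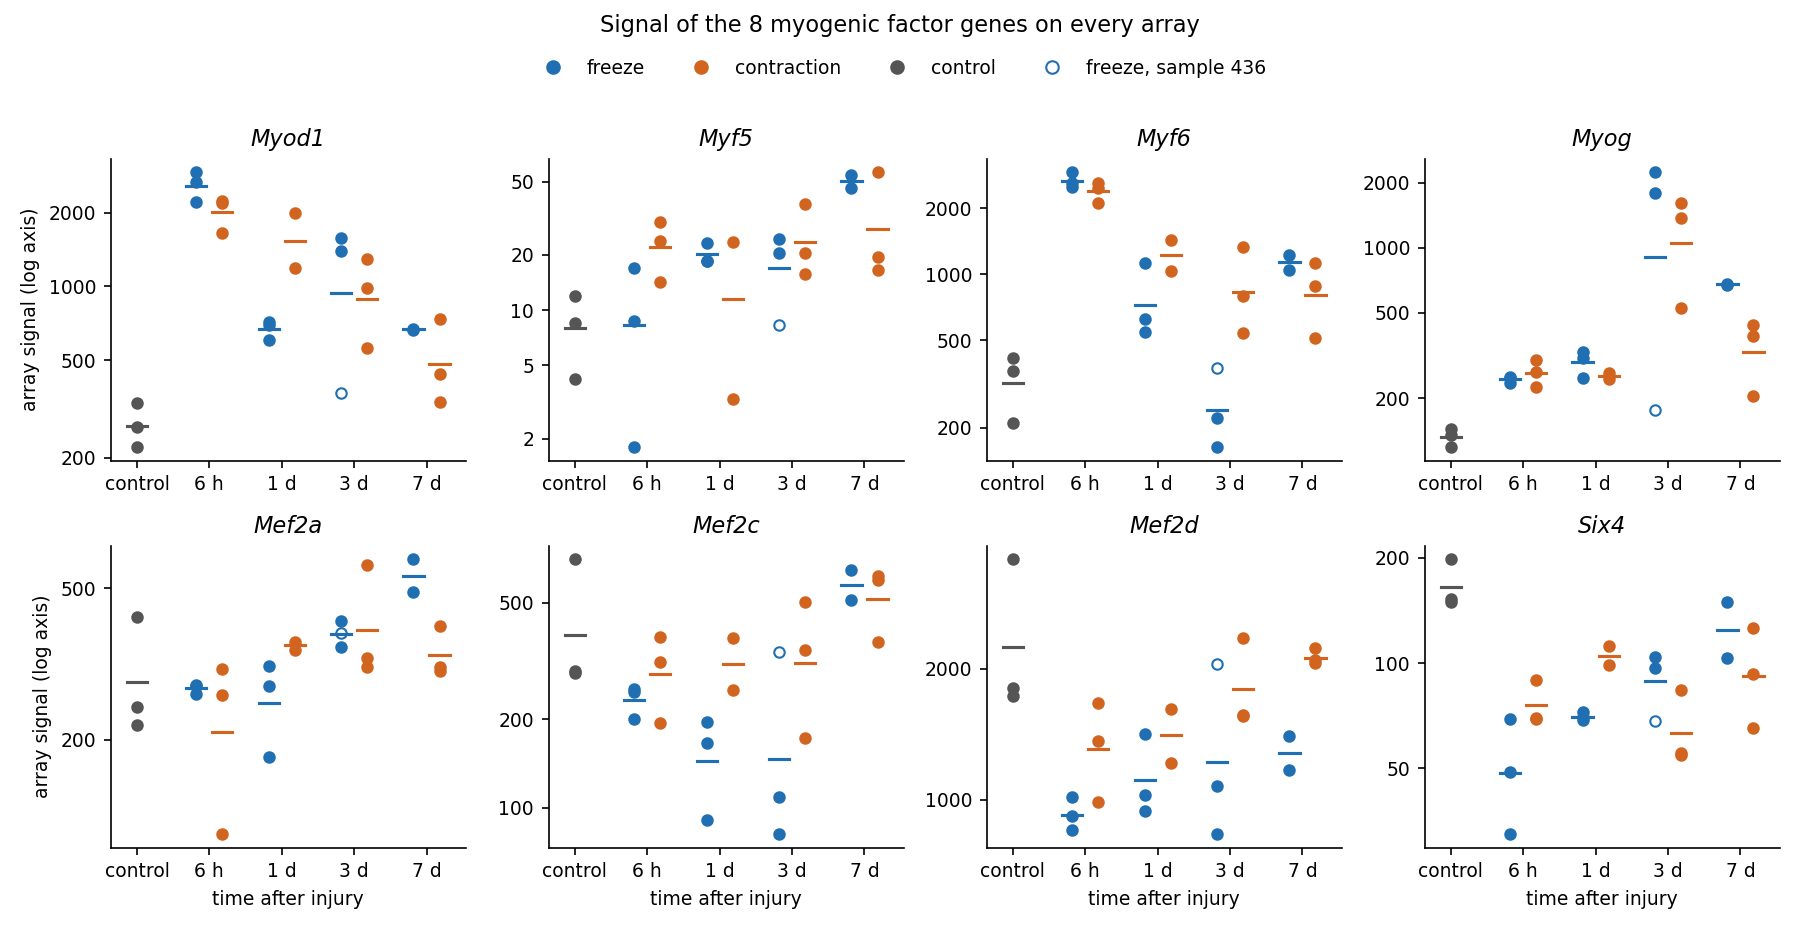
Signal of each of the 8 genes on every array (log axis, arbitrary units) against time after injury. Points are arrays, bars are group means of the log2 values, and the open circle is sample 436. Myod1 and Myf6 are highest at 6 h, Myog at 3 days, and every injured array of Six4, by its representative probe set, lies below the controls.

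Myf6, the factor of differentiated fibres, rose with Myod1 at 6 h but was at the control level after freeze at 3 days. After freeze its signals were 2916, 2608 and 2501 at 6 h, 629, 546 and 1122 at 1 day, 375 (sample 436), 163 and 222 at 3 days, and 1229.5 and 1049 at 7 days. After contraction they were 2615, 2484 and 2111 at 6 h, 1036 and 1435 at 1 day, 793, 539 and 1335 at 3 days, and 511, 1126 and 888 at 7 days. Controls gave 414, 364 and 211. All arrays of 7 of the 8 injured groups lay above all controls, and the freeze arrays at 3 days lay within or below the control range. Myf6 rose by 3.02 ± 0.35 (adjusted p = 4.9e-06) after freeze at 6 h, 1.17 ± 0.35 (adjusted p = 0.0305) at 1 day and 1.80 ± 0.39 (adjusted p = 0.0126) at 7 days. At 3 days the change after freeze was -0.39 ± 0.35 (adjusted p = 0.446), and -0.70 ± 0.35 without sample 436 (adjusted p = 0.112). After contraction Myf6 rose by 2.87 ± 0.35 (adjusted p = 1.34e-05) at 6 h, 1.90 ± 0.39 (adjusted p = 0.00855) at 1 day and 1.35 ± 0.35 (adjusted p = 0.0232) at 3 days. At 7 days after contraction it stood at 1.3 ± 0.35, which was called without sample 436 (adjusted p = 0.0218) and not with it (adjusted p = 0.118).

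The freeze course of Myf6 therefore held 3 called steps. It fell by 1.86 ± 0.35 between 6 h and 1 day (adjusted p = 0.00465) and by a further 1.55 ± 0.35 between 1 and 3 days (adjusted p = 0.0184), and rose by 2.19 ± 0.39 between 3 and 7 days (adjusted p = 0.00459). No step of Myf6 was called after contraction, where its largest was -0.97 ± 0.39 between 6 h and 1 day (adjusted p = 0.767). The freeze fall to 1 day was called whichever array was left out. The fall to 3 days was lost without sample 464, 450 or 468 (adjusted p = 0.136, 0.115 and 0.0667), and the rise to 7 days without sample 440 or 454 (adjusted p = 0.134 and 0.0606). Under the 14 other settings that fall was kept in 12 and that rise in 13. Of the rises over control, that after contraction at 1 day was lost without sample 463 or control 3 (adjusted p = 0.224 and 0.0552), and that at 3 days without sample 435 or 467 or control 3 (adjusted p = 0.0733 to 0.123). The freeze rise at 1 day was lost without sample 464 or control 3 (adjusted p = 0.164 and 0.135) and with arrays centred on the median (adjusted p = 0.0557), and that at 7 days without sample 440 or 454 or control 3 (adjusted p = 0.0656 to 0.158).

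Beside this dip of Myf6, the 8 fibre markers and the 10 macrophage markers also moved at 3 days. Their fibre sums were 26525 to 35055 after freeze without sample 436, 152174 on sample 436, 56410 to 77635 after contraction and 92557 to 151070 in controls. After freeze at 3 days 4 of 8 fibre markers were called lower and 9 of 10 macrophage markers higher (background 17.9%). Without sample 436 all 8 and all 10 were (42.4%). After contraction at 3 days 0 fibre markers were called with all arrays (8.25%) and 7 of 8 were called lower without sample 436 (22.8%). Of the macrophage markers, 8 of 10 were called higher there with all arrays and all 10 without sample 436. The macrophage sums were 21446 to 22466 after freeze without sample 436, 7873 to 11334 after contraction and 294 to 440 in controls. No marker of either list was at 0 in the group means, and the part of these cells in the course of Myf6 was not tested.

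Myog, which encodes myogenin and is known for driving myoblasts into differentiation, rose late. After freeze its signals were 235, 251.2 and 248 at 6 h, 307, 330 and 249.4 at 1 day, 178 (sample 436), 2240 and 1797 at 3 days, and 673 and 683 at 7 days. After contraction they were 300, 264 and 226 at 6 h, 262 and 245 at 1 day, 1382, 528 and 1616 at 3 days, and 205, 436 and 391 at 7 days. Controls gave 135, 119 and 144. Every injured array lay above every control, and apart from sample 436 the 3-day arrays of freeze were the highest of all. The change was largest at 3 days, 2.66 ± 0.57 after freeze (adjusted p = 0.0109) and 2.88 ± 0.57 after contraction (adjusted p = 0.00561). The freeze value was 3.80 ± 0.32 without sample 436 (adjusted p = 3.36e-09). At 7 days Myog was still 2.25 ± 0.64 above control after freeze (adjusted p = 0.0439) and stood at 1.23 ± 0.57 after contraction (adjusted p = 0.515, or 0.0187 without sample 436).

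The earlier values of Myog were smaller. They were 0.83 ± 0.57 after freeze and 0.92 ± 0.57 after contraction at 6 h, and 1.08 ± 0.57 and 0.88 ± 0.64 at 1 day, none of them called. The freeze value at 1 day was called without sample 436 (adjusted p = 0.0071). Without it the 6 h values were 0.83 ± 0.29 after freeze and 0.92 ± 0.29 after contraction, not called (adjusted p = 0.0666 and 0.0894). The steps between 1 and 3 days were 1.59 ± 0.57 after freeze (adjusted p = 0.201) and 2.01 ± 0.64 after contraction (adjusted p = 0.139), and without sample 436 both were called, at 2.72 ± 0.32 and 2.01 ± 0.32 (adjusted p = 3.05e-06 and 0.000243). Myog then fell between 3 and 7 days after contraction by 1.65 ± 0.29 without sample 436 (adjusted p = 0.000412), a step not called with it (adjusted p = 0.164). After freeze that step was -1.55 ± 0.35 without sample 436 (adjusted p = 0.00318) and -0.41 ± 0.64 with it (adjusted p = 0.9). The contraction rise at 3 days was called whichever array was left out. The freeze rise at 3 days was lost without sample 450 or 468 (adjusted p = 0.116 and 0.102), and that at 7 days without any 1 of 18 of the 25 arrays (adjusted p = 0.05 to 0.261) or with no filter, no trend or a pseudocount of 50 (adjusted p = 0.0523 to 0.0541).

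Myf5, a commitment factor alongside Myod1, was dim on this array and lay above the 40th percentile of its array on 4 of 25 arrays and on 0 of 3 controls. Its signals at 7 days were 54.0 and 46.3 after freeze, 16.6, 56.1 and 19.4 after contraction and 8.5, 12 and 4.2 in controls. Both freeze arrays and all 3 contraction arrays lay above all controls, with 1 contraction array far above the other 2. The rise after freeze at 7 days, 1.59 ± 0.41 (adjusted p = 0.0302), was the only call of Myf5. With a pseudocount of 1 it was 2.56 (adjusted p = 0.0571), and without sample 440 or 454 or control 1 or 3 the call was lost (adjusted p = 0.0655 to 0.248). Both freeze arrays at 7 days were among the 4 highest signals of Myf5, so the filter and this call may rest on the same values. With the filter set at the 60th percentile Myf5 was not tested. Over the other groups the mean signal was 8.23 ± 3.91 (SD, n = 3) in controls and between 9.13 ± 7.56 (SD, n = 3) after freeze at 6 h and 30.7 ± 22.0 (SD, n = 3) after contraction at 7 days.

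**Figure D2:**
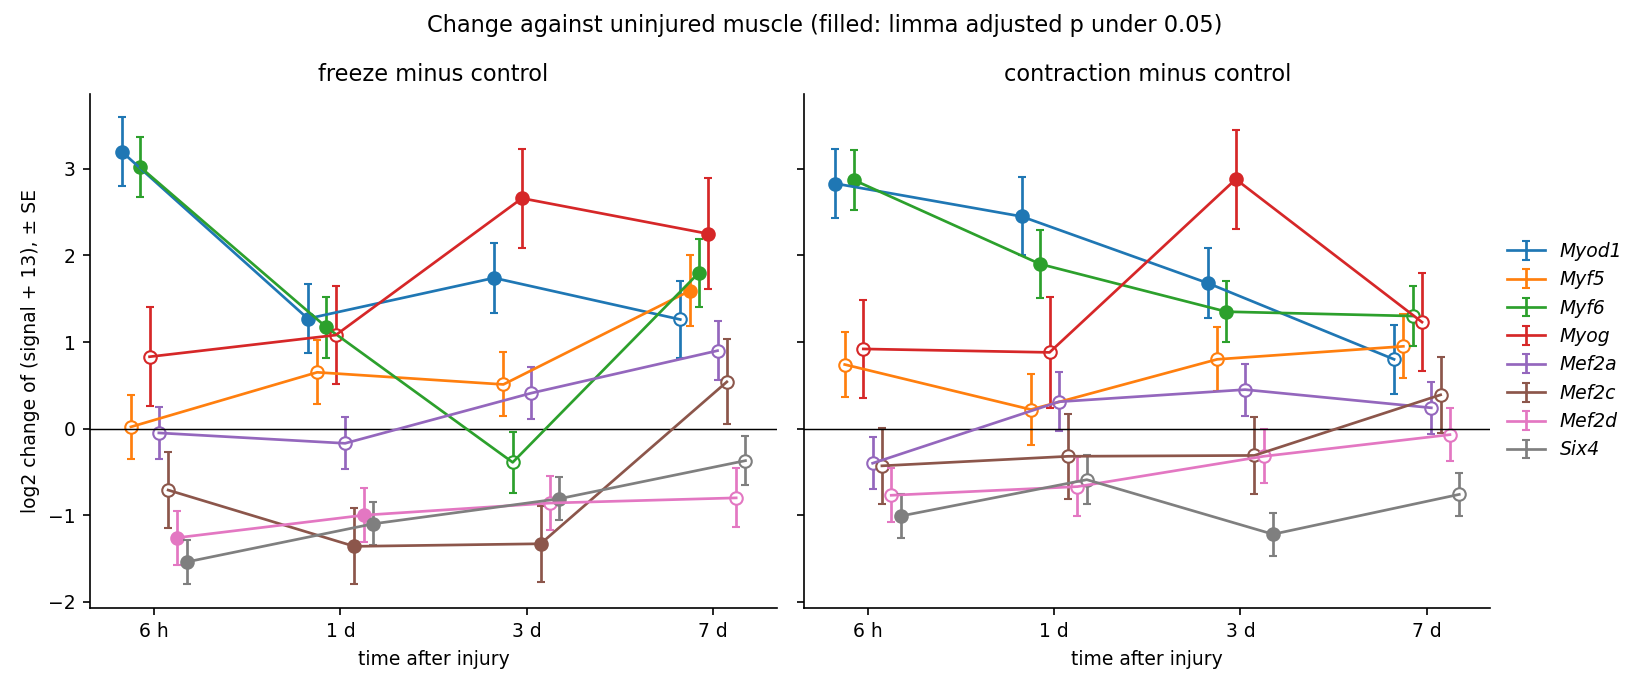
Log2 change of signal plus 13 units against uninjured muscle (vertical axis, ± SE) at each time after freeze (left) and contraction (right), 1 line per gene. Filled points are called. Myod1 and Myf6 peak at 6 h above 2.8, Myog peaks at 3 days above 2.6, and Six4, by its representative probe set, lies below 0 throughout.

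With all arrays, Myod1 and Myf6 were first called above control at 6 h and Myog at 3 days after either injury. Without sample 436 Myog was called from 1 day on after freeze (1.08, adjusted p = 0.0071) and first at 3 days after contraction, where it stood at 0.88 at 1 day (adjusted p = 0.145). Myf5 followed at 7 days after freeze alone, where the difference between the injuries was not called (0.64 ± 0.41, adjusted p = 0.58). The place of Myf5 in this order is uncertain, since its call may rest on the signals that let it pass the filter. Ranked by the group mean of log2 values, Myod1 was highest after freeze at 6 h, then contraction at 6 h, contraction at 1 day, freeze at 3 days, contraction at 3 days, freeze at 1 day, freeze at 7 days, contraction at 7 days and control. Every neighbour in that order overlapped in range, apart from control. Without sample 436 freeze at 3 days no longer overlapped contraction at 3 days, with signals of 1399.5 and 1572 against 558 to 1291. That difference in Myod1, 0.73 ± 0.30, was not called (adjusted p = 0.104). For Myog the order was contraction at 3 days, freeze at 3 days, freeze at 7 days, contraction at 7 days, freeze at 1 day, contraction at 6 h, contraction at 1 day, freeze at 6 h and control. There the ranges of neighbours did not overlap between freeze and contraction at 7 days and between freeze at 6 h and control. The top of that order turned with sample 436. By mean signal freeze at 3 days was the higher, with 1405 against 1175 after contraction, and without sample 436 it lay 0.91 ± 0.32 above contraction on the log2 scale, with ranges that did not overlap. For Myf6 the order began with freeze and contraction at 6 h, which were clear of the rest, and ended with control and freeze at 3 days, which were clear of the groups above them.

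The MEF2 genes, whose proteins act with the myogenic factors on fibre promoters, did not rise with them at a called level. Mef2d was lower after freeze, with signals of 852, 1015 and 917 at 6 h, 1026, 1413.5 and 940.0 at 1 day, 2053 (sample 436), 833 and 1072 at 3 days, and 1401 and 1169.6 at 7 days. After contraction they were 1365, 987 and 1666 at 6 h, 1211 and 1620.5 at 1 day, 2355, 1557 and 1569.5 at 3 days, and 2066, 2095 and 2229 at 7 days. Controls gave 1804, 1733 and 3574. The freeze arrays at 6 h, 1 day and 7 days lay below every control, as did the contraction arrays at 6 h and 1 day, and 1 control was far above the other 2. Mef2d fell by 1.26 ± 0.31 at 6 h (adjusted p = 0.0148) and 1.00 ± 0.31 at 1 day (adjusted p = 0.0324) after freeze. At 3 days it stood at -0.86 ± 0.31 (adjusted p = 0.0533), and at -1.23 ± 0.27 without sample 436 (adjusted p = 0.000814). At 7 days it stood at -0.80 ± 0.34 (adjusted p = 0.16), which was called without sample 436 (adjusted p = 0.0421). Without control 3, the high one, neither fall was called (adjusted p = 0.122 at 6 h and 0.164 at 1 day). The 6 h call was also lost without sample 418 or 446 (adjusted p = 0.0651 and 0.06), and the 1-day call without sample 422 or 464 (adjusted p = 0.0859 and 0.121). After contraction no change of Mef2d was called, the largest being -0.77 ± 0.31 at 6 h (adjusted p = 0.323) and -0.67 ± 0.34 at 1 day (adjusted p = 0.532).

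Mef2c, the MEF2 gene linked to sarcomere upkeep in mouse, was lower after freeze at 1 and 3 days. Its signals at 1 day were 91.2, 196 and 166 after freeze, 377 and 252 after contraction and 292, 701 and 287 in controls. At 3 days they were 340 (sample 436), 81.5 and 109 after freeze and 173, 501 and 345 after contraction. The freeze arrays at 1 day lay below all controls, and at 3 days sample 436 lay inside the control range. Control 2, at 701, was far above the other 2, and without it the 1-day fall was not called (adjusted p = 0.192). Mef2c fell by 1.36 ± 0.44 at 1 day (adjusted p = 0.0435) and by 1.33 ± 0.44 at 3 days (adjusted p = 0.0414), or by 1.90 ± 0.40 at 3 days without sample 436 (adjusted p = 0.000456). It then rose by 2.45 ± 0.44 between 3 and 7 days after freeze without sample 436 (adjusted p = 0.000353), against 1.88 ± 0.49 with it (adjusted p = 0.0777). The 1-day fall was lost without any 1 of 16 of the 25 arrays (adjusted p = 0.05 to 0.192) or with no filter (adjusted p = 0.0547) or no trend (adjusted p = 0.0514), and the 3-day fall without sample 450 or 468 or any 1 control (adjusted p = 0.0556 to 0.256) or with no filter (adjusted p = 0.052).

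The other probe sets of Mef2c gave smaller changes at 1 and 3 days after freeze. At 1 day after freeze 104592_i_at fell by 1.22 ± 0.40 (adjusted p = 0.0443), while 104590_at stood at -0.77 ± 0.29 (adjusted p = 0.0722) and 104591_g_at at -0.74 ± 0.35 (adjusted p = 0.158). At 3 days these 3 stood between -0.76 and -0.37 and none was called. At 7 days after freeze they gave 0.71 to 0.95, against 0.54 for the representative 97357_at, and at 7 days after contraction 0.46 to 0.76 against 0.39, again with no call. With all arrays Mef2a was not called in any comparison, and without sample 436 it was called for any change alone (adjusted p = 0.0437). Its signals at 7 days were 489 and 596 after freeze, 311, 304 and 399 after contraction and 244, 421 and 219 in controls, and its largest change was 0.90 ± 0.34 after freeze at 7 days (adjusted p = 0.108). The second Mef2a probe set, 94133_r_at, lay above the 40th percentile on 0 of 25 arrays and was not tested.

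Six4, a homeobox gene whose protein binds MEF3 motifs, moved opposite in sign to Myod1 and Myf6 at 6 h. After freeze its signals were 48.7, 69.1 and 32.4 at 6 h, 70.1, 68.5 and 72.6 at 1 day, 68.3 (sample 436), 104 and 97.0 at 3 days, and 104 and 149.3 at 7 days. After contraction they were 89.3, 69.6 and 69.2 at 6 h, 112 and 98.7 at 1 day, 55.2, 54.5 and 83.6 at 3 days, and 65.4, 92.8 and 126 at 7 days. Controls gave 198, 152 and 149.5. Every injured array lay below every control, the closest being a freeze array at 7 days with 149.3. Six4 fell by 1.54 ± 0.25 (adjusted p = 0.000382) at 6 h, 1.10 ± 0.25 (adjusted p = 0.00632) at 1 day and 0.81 ± 0.25 (adjusted p = 0.0317) at 3 days after freeze. After contraction it fell by 1.01 ± 0.25 at 6 h (adjusted p = 0.0347) and 1.22 ± 0.25 at 3 days (adjusted p = 0.00636).

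The freeze falls of Six4 at 6 h and 1 day and the contraction fall at 3 days were called whichever array was left out. The freeze fall at 3 days was lost without any 1 array of its group or any 1 control (adjusted p = 0.0528 to 0.129), and the contraction fall at 6 h likewise (adjusted p = 0.0542 to 0.152) and with only the groups compared (adjusted p = 0.0809) or a floor in place of the pseudocount (adjusted p = 0.0526). Its other probe sets did not follow in all groups. At 1 day after freeze 93001_at fell by 0.95 ± 0.31 (adjusted p = 0.0432), and 93000_g_at stood at -0.44 ± 0.27 (adjusted p = 0.278). Neither was called at any other time, and after contraction at 3 days they stood at -0.30 ± 0.27 for 93000_g_at and -0.09 ± 0.31 for 93001_at. At 6 h after freeze 93001_at stood at -0.91 ± 0.31 (adjusted p = 0.0985) and 93000_g_at at -0.42 ± 0.27 (adjusted p = 0.454). At 6 h after contraction 93001_at stood at -0.45 ± 0.31 (adjusted p = 0.695) and 93000_g_at at -0.61 ± 0.27 (adjusted p = 0.405). Apart from freeze at 1 day, the called falls of Six4 thus rest on 92999_at alone.

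**Figure D3:**
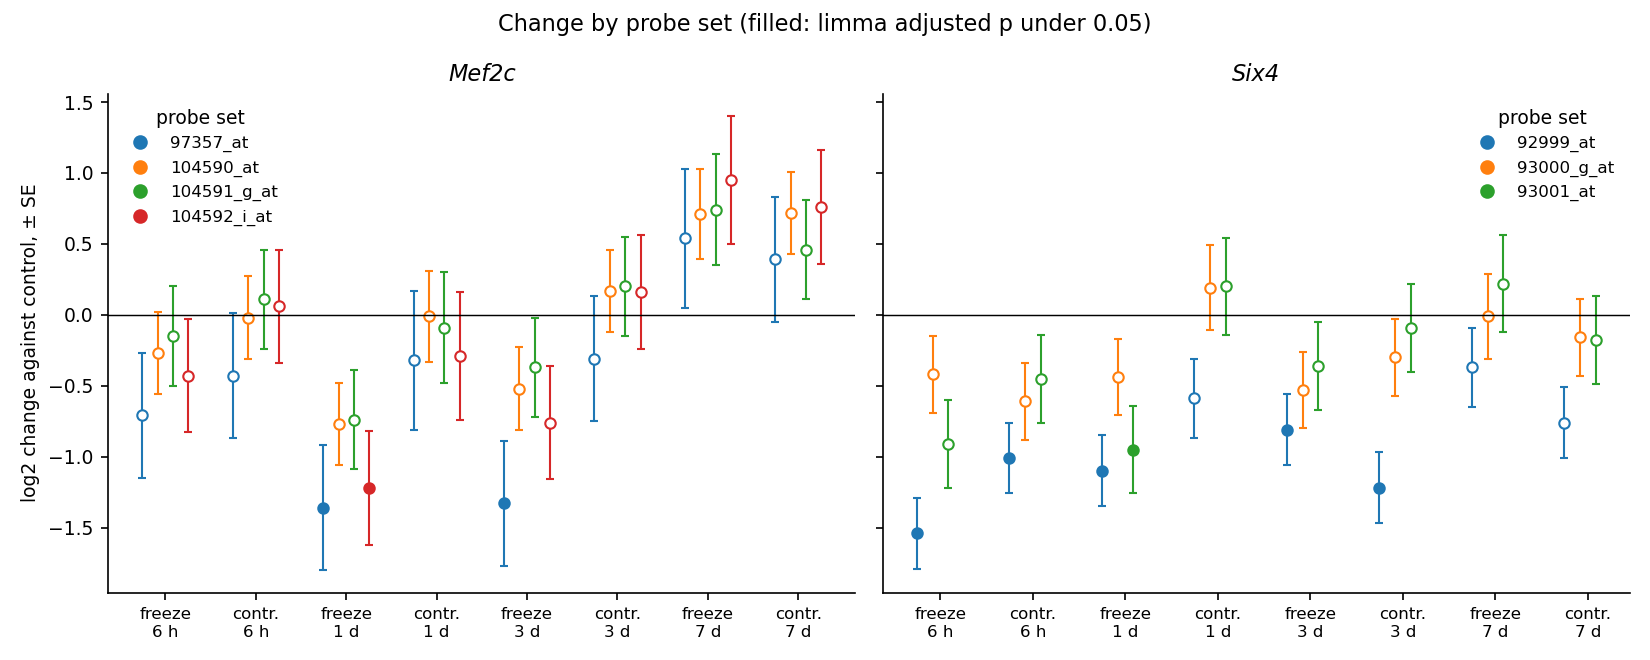
Log2 change against control (vertical axis, ± SE) in the 8 injured groups for each tested probe set of Mef2c (left) and Six4 (right), filled where called. For Six4 the probe set 92999_at lies lowest in all 8 groups, and 93000_g_at is not called in any group.

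A sign of RNA quality moved with some of these groups. The ratio of 3′ to 5′ signal from the array's actin controls was 1.01 to 1.31 after freeze at 1 day, 0.741 to 1.09 after freeze at 3 days and 0.923 to 1.21 after contraction at 3 days, against 0.560 to 0.595 in controls. At 6 h it was 0.657 to 0.955 after freeze and 0.572 to 0.669 after contraction, and at 7 days 0.776 to 0.808 and 0.522 to 0.716. Its part in the falls of Mef2c, Mef2d and Six4 was not tested.

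Counted over the 8 genes, calls were a larger share than among all probe sets tested in 7 of the 8 comparisons with control. After freeze 4 genes were called at 6 h (background 4.85% of probe sets in either direction), 5 at 1 day (14.2%), 4 at 3 days (17.9%) and 3 at 7 days (5.29%). After contraction 3 were called at 6 h (1.87%), 2 at 1 day (1.79%) and 4 at 3 days (8.25%). At 7 days after contraction limma called 0 (0.537%), while Myf5, Myf6, Myog and Six4 had an unadjusted p under 0.05. Without sample 436 the freeze counts were 4 (11.4%), 6 (26.8%), 4 (42.4%) and 5 (19.5%) at these times, and the count at 3 days was a share near its background. The contraction counts were then 3 (3.36%), 2 (4.33%), 4 (22.8%) and 2 (3.03%). The median change of the 8 genes was lowest at 6 h, at -0.02 after freeze and 0.17 after contraction, and highest at 1.08 after freeze at 7 days and 0.62 after contraction at 3 days. Over all probe sets the medians were -0.09 to -0.03. With sample 436 left out the lowest after freeze was that at 3 days, -0.12, which was also the median of all probe sets there.

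Freeze and contraction were set against each other directly at each time. Of the 8 genes, 0 differed at 6 h (background 0.305%), 0 at 1 day (1.45%), 1 at 3 days (0.389%) and 0 at 7 days (0.368%). At an unadjusted p under 0.05 Six4 differed at 6 h, Myod1 and Mef2c at 1 day, Mef2c also at 3 days and Mef2d at 7 days. The called difference was that of Myf6 at 3 days, where freeze lay 1.74 ± 0.35 below contraction (95% interval -2.47 to -1.01, adjusted p = 0.0236). The freeze arrays gave 375 (sample 436), 163 and 222 and the contraction arrays 793, 539 and 1335, and the ranges did not overlap. Leaving out sample 436 gave -2.05 ± 0.35 (adjusted p = 0.000266). It was not called without sample 435, 467, 450 or 468 (adjusted p = 0.0714, 0.216, 0.169 and 0.0905), with arrays centred on the median (adjusted p = 0.0545) or with only these groups in the fit (adjusted p = 0.998).

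Without sample 436 the spread shared by all groups was smaller, freeze means at 3 days moved, and 3 more differences were called. At 1 day Myod1 was lower after freeze than after contraction by 1.18 ± 0.30 (adjusted p = 0.0125, background 10.1%), with signals of 602 to 717 against 1186 and 1993. At 3 days Mef2c and Mef2d were lower after freeze, by 1.59 ± 0.40 (adjusted p = 0.00687) and 0.91 ± 0.27 (adjusted p = 0.0224), where 16.9% of probe sets were called. With all arrays these 2 differences were -1.02 ± 0.44 and -0.54 ± 0.31, while that of Myod1 at 1 day was -1.18 either way. Still without sample 436, Myog was not called, at 0.91 ± 0.32 higher after freeze at 3 days (adjusted p = 0.0536) and 1.02 ± 0.32 higher at 7 days (adjusted p = 0.0569). At 6 h and 7 days 0 genes were called, against backgrounds of 2.36% and 7.27%. For Myod1 at 6 h the 95% interval with all arrays ran from -0.47 to 1.2, and for Myf6 from -0.57 to 0.88, so differences of that size between the injuries could not be told from 0.

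**Figure D4:**
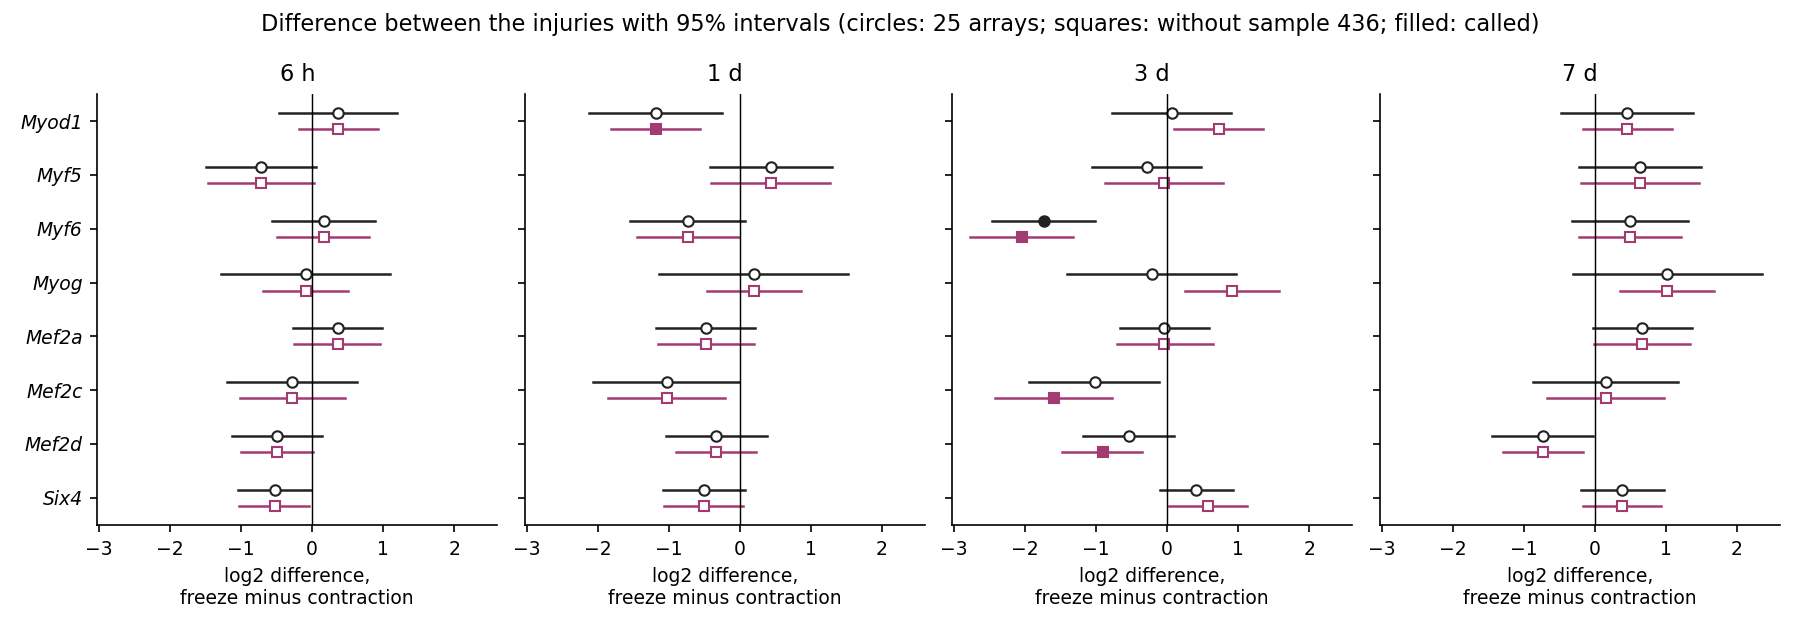
Log2 difference, freeze minus contraction, with 95% intervals (horizontal axis) for the 8 genes at each time. Circles use 25 arrays, squares leave out sample 436, and filled symbols are called. With all arrays the only called difference is Myf6 at 3 days.

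The injury by time interaction, which asks whether a gene's course differs in shape between the injuries, called 0 of 8 genes with limma's F test (background 0.589%), while Myf6 (adjusted p = 0.117) and Six4 (adjusted p = 0.449) were under 0.05 before adjustment. Without sample 436 it called Myod1 (adjusted p = 0.024) and Myf6 (adjusted p = 0.0089), where 4.45% of probe sets were called. Between successive times, called steps numbered 2 for freeze between 6 h and 1 day (background 3.57%), 1 between 1 and 3 days (2.1%) and 1 between 3 and 7 days (0.81%). After contraction they numbered 0 in all 3 steps (0.0421%, 1.16% and 0.842%), where unadjusted p values were under 0.05 for Myf6 and Mef2a in the first, Myog and Six4 in the second and Myod1 and Myog in the third. Without sample 436 the freeze steps numbered 2 (14.7%), 3 (18.1%) and 4 (17.1%) and the contraction steps 0 (0.526%), 1 (9.72%) and 2 (13.1%).

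Genes that partner with or restrain the myogenic factors were followed as a list of 35, of which 29 were tested. After freeze 3 rose and 2 fell at 6 h (background 4.85%), 5 and 3 at 1 day (14.2%), 7 and 3 at 3 days (17.9%), and 2 and 1 at 7 days (5.29%). After contraction 1 rose at 6 h (1.87%), 1 at 1 day (1.79%) and 1 at 7 days (0.537%), and at 3 days 5 rose and 3 fell (8.25%). The median change of the list was between -0.17 and 0.45 over these groups, against -0.09 to -0.03 over all probe sets. Leaving out sample 436, the freeze counts were 5 and 3 (11.4%), 8 and 6 (26.8%), 14 and 5 (42.4%) and 12 and 6 (19.5%) at these times, and the median at 3 days was 0.64 against 0.22 with it. The contraction rises then numbered 3 (3.36%), 2 (4.33%), 8 (22.8%) and 4 (3.03%), with 4 falls at 3 days. Id3, an inhibitor that takes E proteins away from the factors, was called higher at all 4 freeze times and at 3 contraction times, by 1.47 ± 0.25 at most, after freeze at 1 day (adjusted p = 0.000767), and was singled out after its values were seen. Id2, of the same family, averaged 264 ± 29.4 (SD, n = 3) after freeze at 1 day and 27.6 ± 16.0 (SD, n = 3) in controls, a rise of 2.86 ± 0.69 (adjusted p = 0.00879).

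Cdkn1c, the cell cycle inhibitor p57 of differentiating myoblasts, averaged 1549 ± 143 (SD, n = 2) after freeze at 7 days and 126 ± 25 (SD, n = 3) in controls, a rise of 3.51 ± 0.46 (adjusted p = 0.000116). Ccnd1, the cyclin D1 of dividing cells, rose by 2.06 ± 0.35 after freeze at 1 day (adjusted p = 0.000696), with 365 ± 27.4 (SD, n = 3) against 80.7 ± 31.1 (SD, n = 3) in controls. Among the falls, the acetyltransferase gene Crebbp stood lowest, at -1.96 ± 0.35 after freeze at 6 h (adjusted p = 0.00108). Mstn, which encodes the growth inhibitor myostatin, fell by 1.63 ± 0.44 after contraction at 3 days (adjusted p = 0.0271), and the acetyltransferase gene Kat2b by 0.97 ± 0.32 after freeze at 3 days (adjusted p = 0.0411), or by 1.47 without sample 436 (adjusted p = 4.6e-05).

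Satellite cell genes and genes upstream of the factors formed a second list of 35, of which 27 were tested. After freeze 1 rose and 1 fell at 6 h (background 4.85%), 3 rose at 1 day (14.2%), 4 at 3 days (17.9%) and 1 at 7 days (5.29%). After contraction 1 rose at 6 h (1.87%), 1 at 1 day (1.79%), 2 at 3 days (8.25%) and 0 at 7 days (0.537%). At 1, 3 and 7 days after freeze and at 3 days after contraction these were shares below the background, and at 6 h and 1 day after contraction they rest on 1 gene each. Without sample 436 the freeze counts were 1 rise and 2 falls (11.4%), 6 rises (26.8%), 9 rises and 4 falls (42.4%) and 6 rises (19.5%) at these times. The contraction rises were then 1 (3.36%), 1 (4.33%), 6 with 1 fall (22.8%) and 1 (3.03%). Fgfr4, a growth factor receptor of myoblasts, averaged 85.5 ± 19.7 (SD, n = 2) after freeze at 7 days and a dim 7.40 ± 3.12 (SD, n = 3) in controls, a rise of 2.27 ± 0.55 (adjusted p = 0.0218). Notch1, whose signalling keeps satellite cells undifferentiated, rose by 2.06 ± 0.63 after freeze at 1 day (adjusted p = 0.0334). Cxcr4, a chemokine receptor also carried by immune cells, rose by 1.88 ± 0.56 after freeze at 3 days (adjusted p = 0.0283), or by 2.97 without sample 436 (adjusted p = 2.3e-07), where its signals were 5.2 on sample 436, 162 and 167 on the others of the group and 2.8 to 19.8 in controls. With all arrays Notch3 was the only called fall, by 0.78 ± 0.19 after freeze at 6 h (adjusted p = 0.0128). The 4 satellite cell markers measured, Cdh15, Itga7, Ncam1 and Fgfr4, all of which are also in this list, summed to 331 to 424 after freeze and 435 to 485 after contraction at 6 h, when Myod1 and Myf6 were highest, against 383 to 517 in controls. At 3 days they summed to 927 to 956 after freeze without sample 436, 497 on sample 436 and 921 to 1296 after contraction. With all arrays, 2 of these 4, Ncam1 and Fgfr4, were called higher after freeze at 3 days (background 17.9%), and 1, Itga7, after contraction (8.25%). Itga7 was called lower after freeze than after contraction at that time (0.389%), so the markers did not all move together. None of the 4 had a mean of 0, and their part in the courses of Myod1, Myf6 and Myog was not tested.

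Known targets of the myogenic and MEF2 factors formed a list of 38, of which 31 were tested. After freeze 4 rose at 6 h (background 4.85%), 5 rose and 2 fell at 1 day (14.2%), 7 rose and 5 fell at 3 days (17.9%), and 12 rose at 7 days (5.29%). After contraction 5 rose at 6 h (1.87%), 3 at 1 day (1.79%), 8 rose and 2 fell at 3 days (8.25%), and 10 rose at 7 days (0.537%). The rises at 6 h were those of Csrp3, Ankrd1, Xirp1 and Klf4 after either injury, and of Jun after contraction. No acetylcholine receptor, myosin heavy chain or troponin gene of the list was called at 6 h or 1 day with all arrays. Leaving out sample 436 gave rises and falls after freeze of 5 and 2 (11.4%), 6 and 5 (26.8%), 14 and 9 (42.4%) and 17 and 3 (19.5%) at these times. After contraction it gave 5 rises (3.36%), 6 (4.33%), 16 with 6 falls (22.8%) and 12 (3.03%). The median change of the list was 1.08 after freeze and 0.50 after contraction at 7 days, against -0.06 and -0.05 over all probe sets tested.

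Ankrd1, a stress-responsive ankyrin repeat gene called higher in all 8 injured groups, averaged 7123 ± 480 (SD, n = 3) after contraction at 6 h and 124 ± 40.9 (SD, n = 3) in controls, a rise of 5.74 ± 0.34 (adjusted p = 2.98e-10). Myh3, embryonic myosin heavy chain, averaged 1128 ± 156 (SD, n = 2) after freeze at 7 days and a dim 8.47 ± 9.88 (SD, n = 3) in controls, a rise of 5.82 ± 0.79 (adjusted p = 0.000174). Myh8, perinatal myosin heavy chain, rose by 4.96 ± 0.31 (adjusted p = 1.59e-09), with 1342 ± 253 (SD, n = 2) against 30.2 ± 5.37 (SD, n = 3). Smyd1, a muscle methyltransferase gene, fell by 2.21 ± 0.40 after freeze at 1 day (adjusted p = 0.00126). Ckm, muscle creatine kinase and one of the fibre markers, fell by 1.83 ± 0.56 (adjusted p = 0.0302) and Myom1, which encodes the M-band protein myomesin, by 1.75 ± 0.54 (adjusted p = 0.0326) after freeze at 3 days. For Ckm sample 436 gave 8546, above the control range of 5318 to 6651, and the others of its group 700.0 and 730.0, and without sample 436 Ckm fell by 3.02 (adjusted p = 2.46e-10). For Myom1 sample 436 gave 3781, inside the control range of 1962 to 3855, and the others 298 and 401, and without it Myom1 fell by 2.88 (adjusted p = 2e-09). Between the injuries at 3 days Csrp3, Ankrd1 and Xirp1 were called lower after freeze, of which Csrp3 (-2.61 ± 0.31, adjusted p = 0.000337) and Xirp1 (-1.99 ± 0.31, adjusted p = 0.00251) were picked after their values were seen. These 3 were the only targets called there with all arrays (background 0.389%), and without sample 436, 7 targets were higher and 11 lower after freeze (16.9%), these 3 among the lower.

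**Figure D5:**
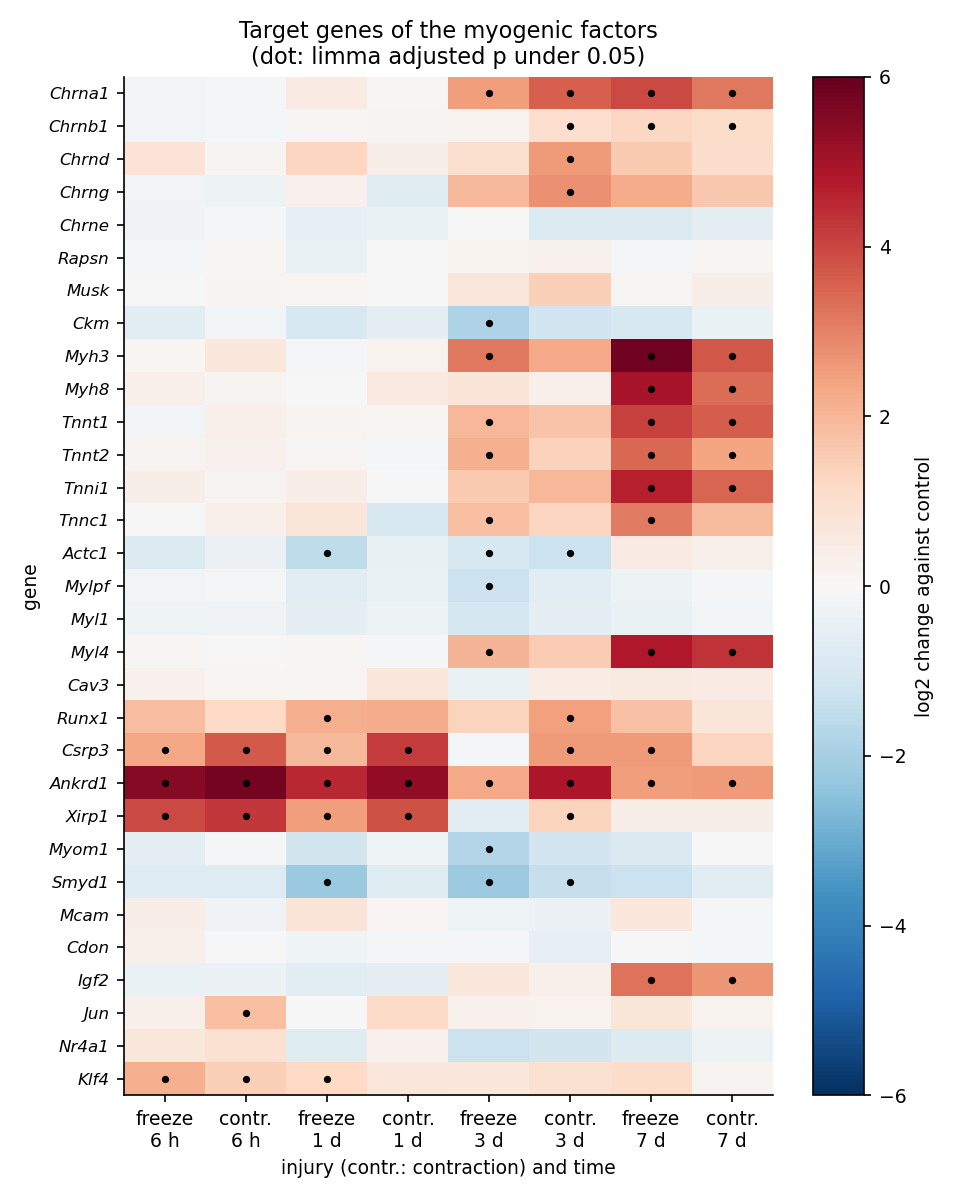
Log2 change against control (colour) of the 31 tested target genes of the myogenic and MEF2 factors in the 8 injured groups, with a dot where called. Ankrd1 is called in all 8 groups, and Myh3, Myh8 and Myl4 are called in both groups at 7 days.

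Genes whose 9 group means ran most like those of the 4 basic helix-loop-helix factors were sought among 6915 others, as a description over groups that share arrays, controls and scaling. For Myod1 they were Fos (r = 0.927), Sf3b1 (0.912) and Junb (0.912), and for Myf6 Eno2 (0.942), Lrrc58 (0.940) and Zkscan6 (0.938). For Myog they were Ube2l6 (0.957), Kif20a (0.948) and Hexa (0.945), and for the dim Myf5 Glg1 (0.925), Eif1ax (0.917) and Dynlrb1 (0.915). Without sample 436 Zfp36 (0.910) came first for Myod1 and Fos left the 3, while Eno2 (0.952) and Ube2l6 (0.974) kept first place for Myf6 and Myog. Among the members, Myod1 and Myf6 correlated at 0.737 over the 9 means and at 0.538 without sample 436. Myod1 and Myog correlated at 0.0665, or 0.208 without it, and Myf6 and Myog at -0.209, or -0.401.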

How the data were processed

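Transcripts of 25 mouse muscles were measured on Affymetrix MG-U74Av2 arrays. The authors deposited 1 linear intensity signal for each probe set and array, and the submitters' processing notes name MAS5. The version is not given in the sources used here. After trimming 2% of probe sets at either end, every array had a mean signal of 149.96 to 149.97, so all arrays share a scale and a change is relative to the bulk of the array. Precision is limited by the number of arrays and not by a depth.

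GEO's platform table gave the gene names, updated by gene identifier from RefSeq. It named a single gene for 10855 of the 12488 probe sets and several for 396, and left 1237 unlisted, while 66 were Affymetrix controls. Gene positions are not printed, since the array comes with no build. Promoters are RefSeq's for GRCm38.p6.

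A pseudocount of 13, which is the 20th percentile of the signals, preceded log2. Testing was limited to the 9506 probe sets (6919 genes) whose signal passed the 40th percentile on at least 2 arrays. In R 4.3.3, limma 3.58.1 (lmFit, then eBayes with a trend) fitted 9 group means jointly, so all groups share a residual spread. Tests were two-sided, with the Benjamini-Hochberg adjustment made separately for each comparison, and the code was tested on simulated data. Compared were injury with control, freeze with contraction, each time with the one before, any change, and the interaction of injury and time. A group left with a single array was assumed to vary like the rest.

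Members and gene lists were chosen with earlier results of these data known. Text values cover all 8 members and, per list, up to 3 genes with the largest called rise and 3 with the largest called fall against control. The settings varied were the pseudocount, a floor, quantile normalization, median centring, the filter, the groups fitted, trend, robust moderation, array weights, a random block of adjacent sample numbers, the probe set, the threshold, and each array left out.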

Additional observations from a re-analysis of the deposited data

Results flagged for a closer look

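The values below were picked out because freeze and contraction differed by a direct test. With all arrays this held for Myf6 at 3 days, at -1.74 for freeze minus contraction. Without sample 436 it held for Myf6 at 3 days (-2.05), Mef2c at 3 days (-1.59), Mef2d at 3 days (-0.91) and Myod1 at 1 day (-1.18). Without sample 436 the injury by time interaction also passed the threshold for Myod1 (adjusted p = 0.024) and Myf6 (adjusted p = 0.0089). Groups held 2 or 3 arrays, so single arrays were not tested as outliers.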

How the results depend on the processing

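Of 30 calls in comparisons of 2 groups over the 8 genes, which leave out the 6 for any change, 10 were kept under all 14 other settings and all 25 left-out arrays. Calls numbered 16 after freeze, 9 after contraction, 1 between the injuries, 4 between times, 6 for any change and 0 for the interaction. At an adjusted p under 0.01 the freeze count was 4 and that between the injuries 0. Centring on the array median gave 0 between the injuries, and fitting only the groups compared gave 2. Array weights gave 6 between the injuries, 13 between times and 3 for the interaction. Leaving out each array gave 6 to 19 after freeze (6 without control 3, 10 without control 1, 19 without sample 436), 5 to 11 after contraction (5 without control 3), 0 to 4 between the injuries (0 without sample 435, 467, 450 or 468), 3 to 12 between times, 5 to 8 for any change and 0 to 2 for the interaction. The uncalled step of Myog between 3 and 7 days after freeze, -0.41, was -1.55 without sample 436, where it was called, and turned to 0.23 without sample 450 and 0.08 without sample 468. The causes were not tested. Median centring moved the median of all probe sets in freeze minus contraction at 6 h to -0.079, against 0.022 as deposited. The labels pair no samples, since the groups share no replicate numbers. With adjacent sample numbers, such as those of freeze and contraction arrays of 1 time, as a random block, the within-block correlation was -0.0937 and all 6 counts were as given above. Dim signals limit Myf5, where 0 of 3 controls passed the 40th percentile.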

Other observations

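Markers of other cells ran in an order of their own beside the myogenic factors. The 6 neutrophil markers summed to 2412 to 4207 after freeze and 252 to 1448 after contraction at 6 h, against 190 to 233 in controls, and at 1 day to 1593 to 3115 after freeze and 154 to 222 after contraction. Only 4 of the 6 were tested. Of these, 2, S100a8 and S100a9, were called higher after freeze at 6 h (background 4.85%) and 1 day (14.2%), and 0 after contraction. Without sample 436 Mpo was called lower after freeze at 1 and 3 days (background 26.8% and 42.4%). The 6 fibroblast markers were highest after freeze at 7 days, at 20972 to 21311, against 3784 to 7236 after contraction at 7 days and 2648 to 4885 in controls. After freeze at 7 days 4 of these 6, Col1a1, Col1a2, Col3a1 and Lum, were called higher by limma (background 5.29%). Without sample 436 all 6 were (19.5%). The 6 endothelial markers summed to 1050 to 1136 after freeze and 591 to 737 after contraction at 7 days, against 939 to 1187 in controls. Sums add signals of different probes and describe the same list across groups only.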
